A study of Capra hircus with 6 samples.

Results

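The genes described here encode TAZ and YAP, the 4 TEAD transcription factors and 2 vestigial-like cofactors of TEAD. They are WWTR1, YAP1, TEAD1, TEAD2, TEAD3, TEAD4, VGLL3 and VGLL4, taken by symbol from both deposited expression tables. All 8 were found among 16262 gene symbols, and all 8 were among the 10750 genes that passed a filter on low values (a minimum of 1 FPKM, met by 3 or more libraries). FPKM is the number of sequenced fragments scaled to the gene's length and to the library's total. Levels can thus be set side by side between genes where the length used fits the transcripts.

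Messenger RNA was sequenced from goat (Capra hircus) adipose mesenchymal stem cells, stromal cells of fat that can be turned into fat cells. The control group holds 3 libraries labelled with genotype WT, and the other group holds 3 libraries labelled as overexpressing TAZ. Both groups carry the same treatment label, adipogenic differentiation, and the study asked what TAZ does to adipogenesis. The labels give no day of differentiation, no vector for either group, no clone number and no animal of origin. They do not say that replicates were separate cultures, so the spread that the p-values rest on may be only technical.

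TAZ and YAP are paralogous coactivators that do not bind DNA themselves. When the kinases of the Hippo pathway phosphorylate them, 14-3-3 proteins hold them in the cytoplasm or ubiquitin ligases mark them for destruction, and otherwise they enter the nucleus and act mainly through the DNA-binding TEAD factors. Vestigial-like proteins bind TEAD as well, and VGLL4 competes there with YAP. In mesenchymal cells TAZ is known as a partner of RUNX2 and a repressor of PPARG, and VGLL3 is known as an inhibitor of fat cell formation.

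The libraries held 16935698 to 18852822 fragments, as recovered from the steps between low FPKM values. All 12 stromal markers listed were above the filter, and of these 4 rose, 4 fell and 4 did not pass the test used below, with ALCAM up from 26.3 to 110.4 FPKM and ENG at 0.619 times the control level (66.7% called, beside 37.9% of all tested genes). Of 7 fat cell markers, 6 were under 1 FPKM in every library, PPARG among them. The remaining marker, CIDEC, stood at 18.3 ± 1.31 FPKM in the controls and 17.8 ± 1.29 FPKM in the TAZ libraries (SD, n = 3 each). It did not pass the test. The summed level of 6 leukocyte markers was 12.9 to 15.9 FPKM in the controls and 26.6 to 27.7 FPKM in the TAZ libraries, nearly all of it CD14 and CD68. CD14 rose from 9.58 ± 1.38 to 24.2 ± 0.421 FPKM and CD68 fell from 4.53 ± 0.437 to 2.86 ± 0.333 FPKM (SD, n = 3 each), and PTPRC, the defining leukocyte marker, was listed at 0 in all 6 libraries. The part of these markers in the results below was not tested. Endothelial, epithelial and skeletal muscle markers summed to at most 2.12 FPKM per list and library.

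Among the 8 genes, WWTR1, VGLL3 and TEAD4 rose in the TAZ libraries, TEAD2 fell, and YAP1, TEAD1, TEAD3 and VGLL4 did not pass the test. The test was limma's moderated test on log2(FPKM + 1), two-sided, adjusted by Benjamini-Hochberg across the 10750 genes, with a threshold of 0.05. Log2 fold changes are on that scale, TAZ minus control, and are too small for genes of low level. The 4 calls among 8 genes stand beside 37.9% of all tested genes called, of which 15.7% of tested genes were higher and 22.1% lower. The groups did not overlap for the same 4 genes, against 48.4% of all tested genes. These shares are near the background, so the counts are not a result about the family. Only WWTR1 both passed the test and changed at least 2-fold, as did 4.52% of tested genes.

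**Figure D1:**
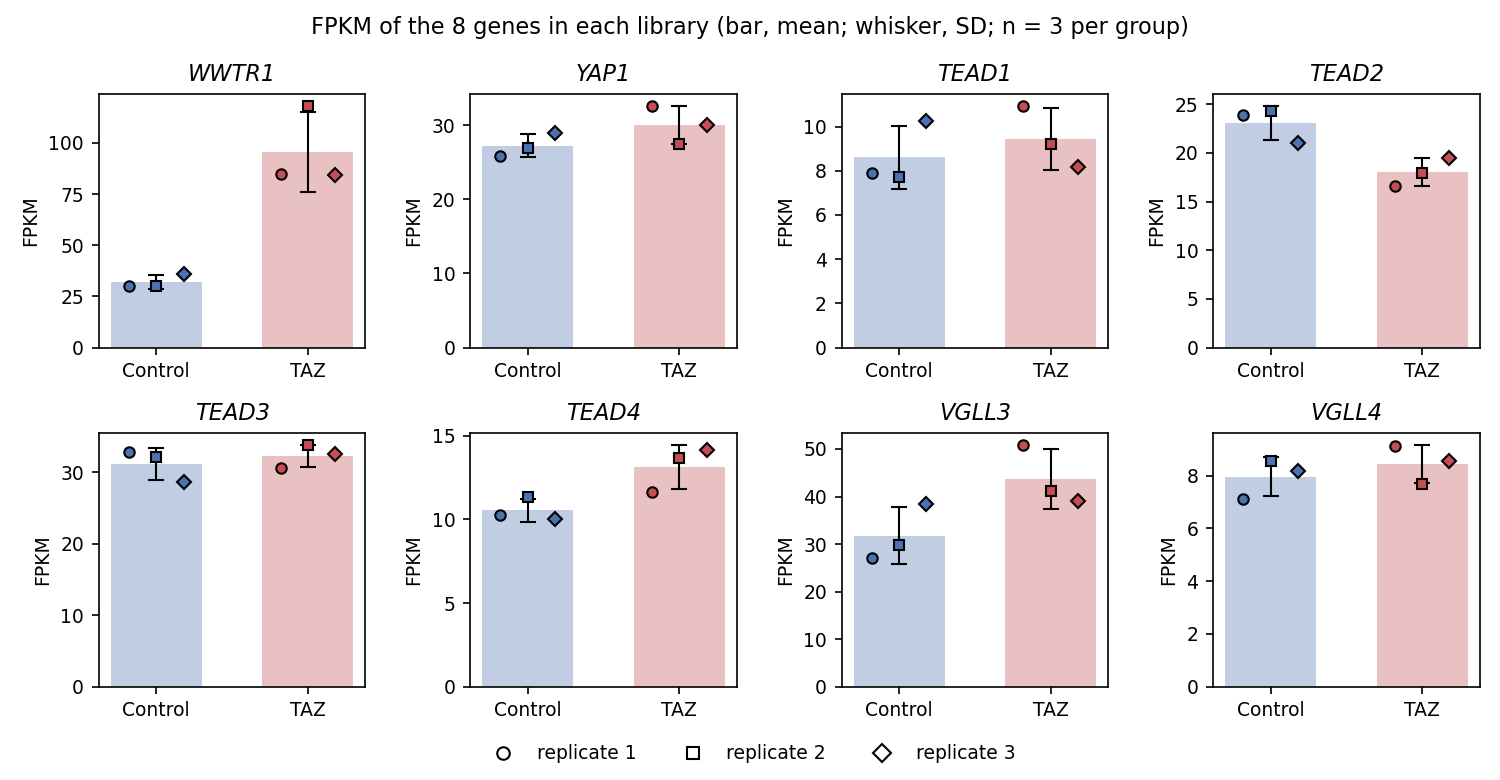
FPKM (linear axes from 0, a different range in each panel) of the 8 genes in control and TAZ libraries, with points for replicates 1 to 3, bars for group means and whiskers for the SD. The groups do not overlap for WWTR1, TEAD2, TEAD4 and VGLL3, and they overlap for the other genes.

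WWTR1, which encodes TAZ, checks the labels. Control replicates 1, 2 and 3 had 30.2, 29.9 and 35.9 FPKM, while TAZ replicates 1, 2 and 3 had 84.6, 118.1 and 84.2 FPKM. Every TAZ library was above every control, and TAZ replicate 2 stood apart within its group at 3.70 times the control mean, against 2.65 and 2.63 times in the other TAZ libraries. Its counting interval of 115.9 to 120.4 FPKM (95%, exact Poisson, counting error only) lies above those of TAZ replicates 1 and 3, which reach 86.6 and 86.2 FPKM. The group means were 32.0 ± 3.38 and 95.7 ± 19.5 FPKM (SD, n = 3 each), and the log2 fold change was 1.54 (SE 0.13, limma adjusted p = 6.91e-07). Its absolute fold change ranked 219 of 10750.

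The WWTR1 row cannot separate the introduced transcript from the cell's own. The length recovered for WWTR1 from the FPKM steps was 4750 bases, and all its fragments are divided by that length whichever transcript they come from. The length of the introduced transcript is not given. If it differs from 4750 bases, the FPKM of WWTR1 in the TAZ libraries misstates the amount of transcript. The same holds for the sums, shares and ratios below that contain WWTR1. In these bulk libraries a change in the share of cells that carry the transcript and a change in the amount per cell cannot be told apart.

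YAP1, the paralog, stood at 25.8, 27.0 and 28.9 FPKM in the controls and at 32.6, 27.5 and 29.97 FPKM in the TAZ libraries. TAZ replicate 2, the library with the most WWTR1, had the least YAP1 of its group, and the groups overlapped. The log2 fold change was 0.13, with a 95% interval from -0.062 to 0.33 (limma adjusted p = 0.268), so the data leave room for a rise of up to 0.33 on that scale.

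WWTR1 made up more of the coactivator pair in every TAZ library than in any control. It held 53.9%, 52.5% and 55.4% of the summed FPKM of WWTR1 and YAP1 in the controls (replicates 1 to 3), against 72.2%, 81.1% and 73.7% with TAZ. The summed level of both went from 59.2 ± 4.83 to 125.7 ± 17.4 FPKM (SD, n = 3 each), a ratio of 2.12. The groups did not overlap in either measure. Both measures contain WWTR1, the gene overexpressed, so they restate its rise and are no further result. Each gave p = 0.1 by an exact two-sided permutation test over libraries (0.2 after Benjamini-Hochberg adjustment over 6 such comparisons), and 0.1 is the smallest p that 3 against 3 libraries allow.

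The TEAD factors bind DNA for both coactivators, and their summed level was nearly the same in both groups while its makeup differed. The sum of TEAD1 to TEAD4 was 75.0, 75.4 and 70.0 FPKM in the controls and 69.7, 74.6 and 74.3 FPKM in the TAZ libraries. The means were 73.4 ± 2.999 and 72.9 ± 2.73 FPKM (SD, n = 3 each, exact permutation p = 0.5). The difference of -0.57 FPKM was smaller than the SD within either group. How reads shared between the TEAD paralogs were counted was not stated in the labels.

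TEAD2 was the 1 gene of the 8 that fell. It stood at 23.9, 24.3 and 21.0 FPKM in the controls and at 16.6, 17.98 and 19.5 FPKM in the TAZ libraries. Each TAZ library was below each control, with the smallest gap between control replicate 3 and TAZ replicate 3. The log2 fold change was -0.34 (SE 0.095, limma adjusted p = 0.013), a level 0.781 times that of the controls. The call was lost without control replicate 2 (limma adjusted p = 0.0508) and without TAZ replicate 1 (0.0598), with adjusted p-values from 0.00469 to 0.0598 over all alternatives.

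TEAD4 rose, from a lower level. It stood at 10.3, 11.3 and 10.04 FPKM in the controls and at 11.6, 13.7 and 14.1 FPKM in the TAZ libraries. The groups were narrowly apart, with TAZ replicate 1 just above control replicate 2. The log2 fold change was 0.29 (SE 0.099, limma adjusted p = 0.0347), a ratio of 1.25. This is the weakest of the 4 calls: it was lost without control replicate 1 or 3, without TAZ replicate 2 or 3, with no filter and with the replicate number as a block, with limma adjusted p-values from 0.013 to 0.148 over all alternatives.

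TEAD1 and TEAD3 did not pass the test. TEAD3, the most abundant TEAD here, stood at 32.9, 32.1 and 28.7 FPKM in the controls and at 30.5, 33.7 and 32.5 FPKM in the TAZ libraries. Its log2 fold change was 0.048 with a 95% interval from -0.14 to 0.24 (limma adjusted p = 0.704). TEAD1 stood at 7.89, 7.71 and 10.3 FPKM in the controls and at 10.9, 9.22 and 8.16 FPKM in the TAZ libraries, with overlapping groups. Its log2 fold change was 0.12 with a 95% interval from -0.15 to 0.39 (limma adjusted p = 0.479).

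As shares of the TEAD sum, TEAD3 held 42.4% ± 1.44 of the control level and 44.2% ± 0.833 of the TAZ level (SD, n = 3 each). TEAD2 held 31.4% ± 1.17 and 24.7% ± 1.36, and TEAD4 14.4% ± 0.656 and 18.02% ± 1.19. The ratio of TEAD4 to TEAD2, which was looked at after their values were seen and so was not tested, was 0.43, 0.467 and 0.477 in the controls, against 0.702, 0.761 and 0.724 with TAZ. TEAD1 held 11.8% ± 2.47 and 13.0% ± 2.42, a difference smaller than the SD (exact permutation p = 0.5).

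**Figure D2:**
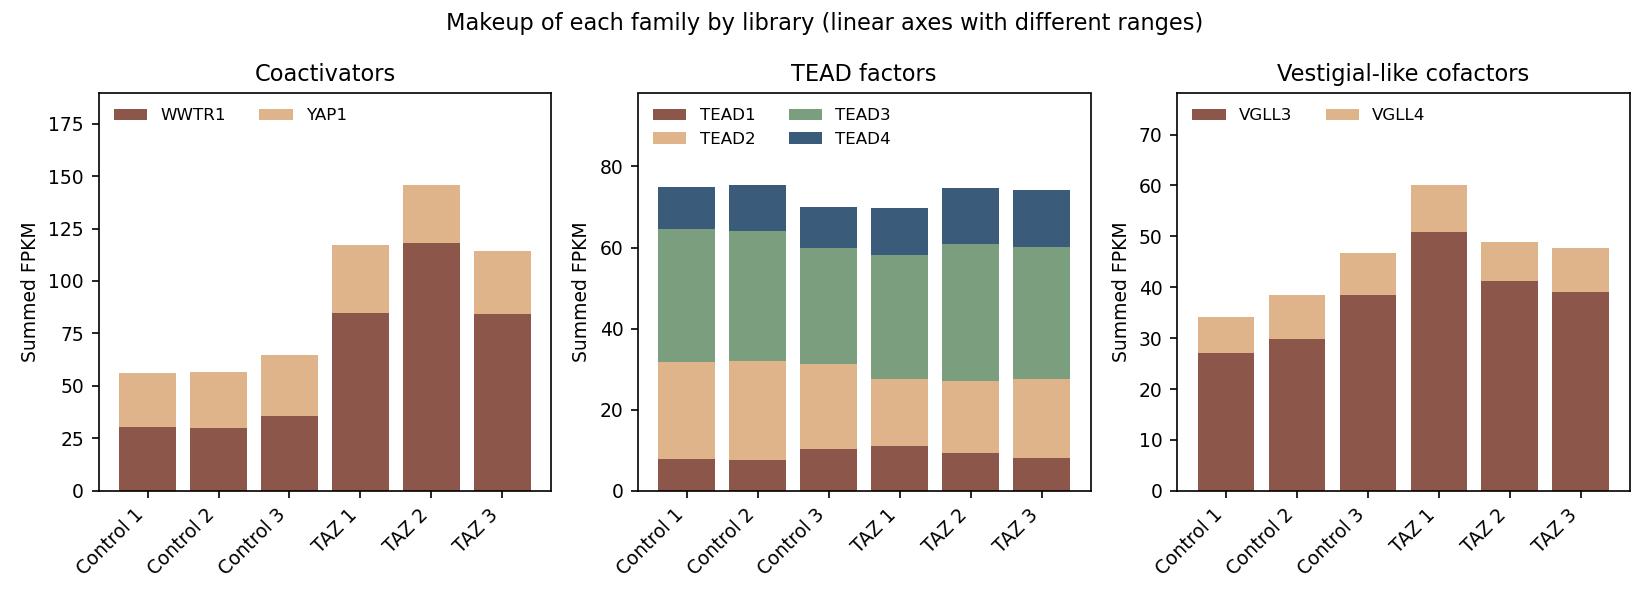
Summed FPKM (linear axes from 0, a different range in each panel) of the coactivators, the TEAD factors and the vestigial-like cofactors in each of the 6 libraries, with 1 colour per gene. The WWTR1 part grows in all 3 TAZ libraries, and the TEAD bars keep nearly the same height of 69.7 to 75.4 FPKM with a smaller TEAD2 part.

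The ratio of WWTR1 plus YAP1 to the TEAD sum was 0.747, 0.754 and 0.925 in the controls. It was 1.68, 1.95 and 1.54 in the TAZ libraries. The mean ratio was 0.809 ± 0.101 against 1.72 ± 0.211 (SD, n = 3 each), with no overlap and an exact permutation p = 0.1. With a TEAD sum nearly the same in both groups, this ratio again restates the rise of the overexpressed WWTR1. These are ratios of FPKM, which depend on the length used for WWTR1, and protein was not measured in the files used here.

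VGLL3, the more abundant of the vestigial-like genes, stood at 27.0, 29.8 and 38.5 FPKM in the controls and at 50.9, 41.1 and 39.1 FPKM in the TAZ libraries. The groups were apart by less than 1 FPKM, between control replicate 3 and TAZ replicate 3. The log2 fold change was 0.46 (SE 0.13, limma adjusted p = 0.0142), a ratio of 1.38. The call was lost without control replicate 1 (limma adjusted p = 0.0599), without TAZ replicate 1 (0.0567) and with no filter (0.0735), with adjusted p-values from 0.000611 to 0.0735 over all alternatives.

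VGLL4, the competitor of YAP on TEAD, stood at 7.13, 8.57 and 8.19 FPKM in the controls and at 9.13, 7.68 and 8.55 FPKM in the TAZ libraries. The groups overlapped, and the log2 fold change was 0.077 with a 95% interval from -0.14 to 0.30 (limma adjusted p = 0.585). The sum of VGLL3 and VGLL4 against the TEAD sum was 0.544 ± 0.11 for controls and 0.719 ± 0.123 for TAZ libraries (SD, n = 3 each). That ratio overlapped between groups, since control replicate 3 at 0.667 was above TAZ replicates 2 and 3 (exact permutation p = 0.3). VGLL2, a further family member, was listed at 0 in all 6 libraries, and VGLL1 was not analysed here.

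**Figure D3:**
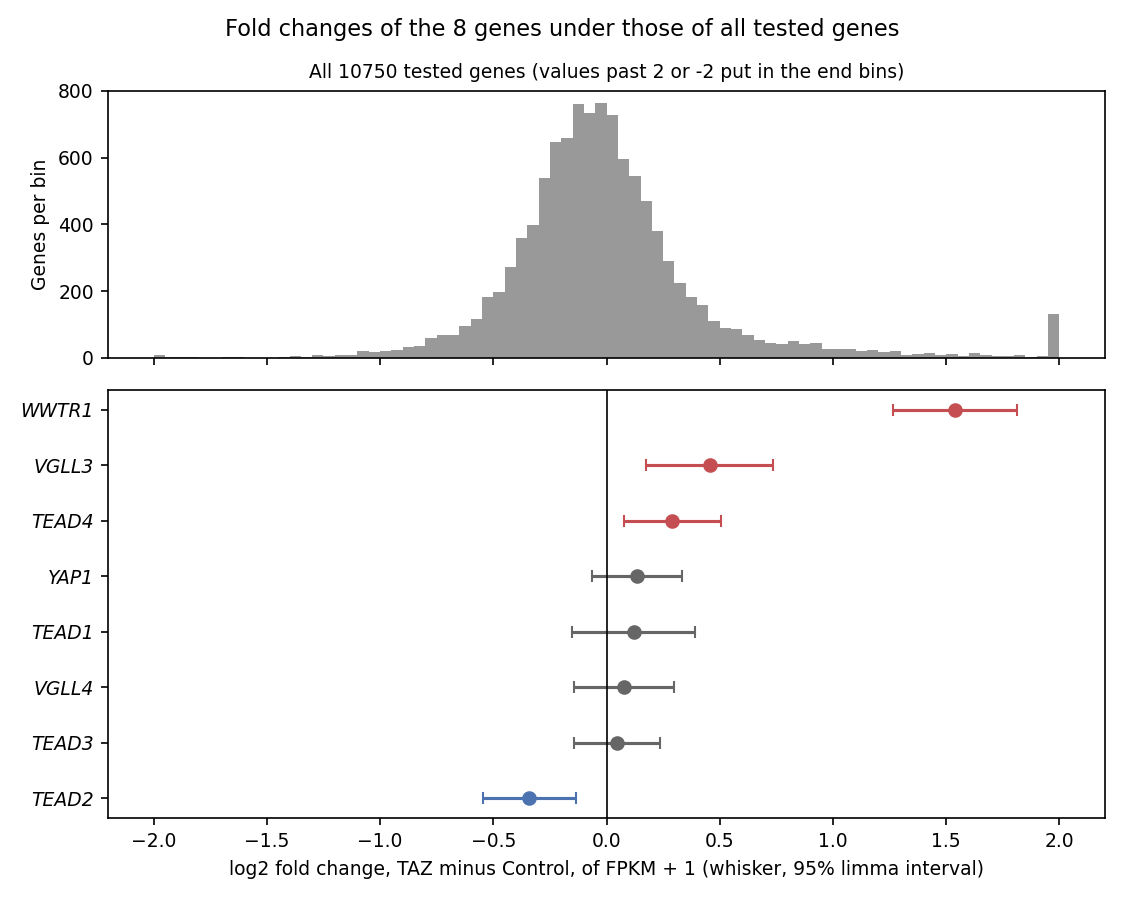
Lower panel, log2 fold change (TAZ minus control, FPKM + 1) of each of the 8 genes with its 95% limma interval, red for genes that rose, blue for the gene that fell and grey for the rest. Upper panel, the number of tested genes per bin on the same axis. WWTR1 at 1.54 lies far to the right of most genes, and the intervals of YAP1, TEAD1, TEAD3 and VGLL4 include 0.

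In the controls the 8 genes fell into 3 levels. WWTR1, VGLL3 and TEAD3 had means of 32.0, 31.8 and 31.2 FPKM with overlapping ranges, and YAP1 at 27.2 FPKM overlapped TEAD3. TEAD2 at 23.1 FPKM was below all of these in every control library. TEAD4, TEAD1 and VGLL4 followed at 10.6, 8.62 and 7.96 FPKM, each overlapping the next. In the TAZ libraries WWTR1 stood alone at the top, VGLL3 at 43.7 FPKM was above TEAD3 at 32.2 FPKM without overlap, and TEAD3 overlapped YAP1. TEAD2 at 18.03 FPKM, TEAD4 at 13.1 FPKM and TEAD1 at 9.44 FPKM followed without overlap between neighbours, and TEAD1 overlapped VGLL4 at 8.45 FPKM.

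Set beside the error from counting alone, the spread between libraries was much larger for some of these genes than for others. WWTR1 rested on 6846.0 to 10580.0 fragments in the TAZ libraries, where the coefficient of variation was 20.4% against 1.10% from counting alone. TEAD4 had the fewest fragments, 460.5 to 509.0 in the controls, and varied there by 6.51% against 4.55% from counting. VGLL3 varied most in the controls, by 18.8% against 2.23% from counting, followed by TEAD1 with 16.5% against 2.56%.

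The libraries deviated together in a way that touched several of these genes. Control replicate 3 and TAZ replicate 1 each had the highest TEAD1, VGLL3 and YAP1 of their group and the lowest TEAD2, TEAD3 and TEAD4. The same libraries were shifted by gene length: over the 3584 longest tested genes the median deviation from the group mean was 0.084 log2 in control replicate 3 and 0.076 in TAZ replicate 1. Over the 3583 shortest it was -0.06 and -0.052. Over the genes of middle length, which include TEAD3, TEAD4 and VGLL3, it was only 0.0048 and 0.0047. The part of length in the joint deviation of these genes was not tested. The median log2 fold change was -0.12 over the shortest genes, which include TEAD2, and 0.0057 over the longest, which include WWTR1, YAP1, TEAD1 and VGLL4. With this length trend removed, in an alternative chosen after seeing the data, the same count of 4 genes passed, with log2 fold changes of 1.55 for WWTR1, -0.27 for TEAD2 (limma adjusted p = 0.0252), 0.34 for TEAD4 (0.013) and 0.49 for VGLL3 (0.00876).

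Among the genes whose profile over the 6 libraries lay nearest to that of WWTR1 were ACSL5, FAM198B, STAC and CCPG1. Likeness was the root-mean-square distance between profiles of log2(FPKM + 1) after subtracting each gene's control mean, over 9999 genes with a symbol other than a LOC number. In all, 98 genes lay within 0.3 log2 of WWTR1. ACSL5, a long-chain acyl-CoA synthetase gene, was nearest at 0.101 log2, with 1.46, 1.45 and 1.56 FPKM in the controls and 5.83, 6.98 and 5.61 FPKM in the TAZ libraries. At this low level the added 1 FPKM shrinks the change of ACSL5, so in FPKM its profile is less like that of WWTR1. Like WWTR1, ACSL5 was highest in TAZ replicate 2, as were FAM198B and STAC. These genes were picked for likeness over the same 6 libraries, so a shared highest library is favoured by the choice. CCPG1, at a distance of 0.165, was highest in TAZ replicate 1. None of the other genes of the family was near: VGLL3, the closest of them, was at a distance of 0.801 and ranked 876, against a median distance of 1.14 over all genes compared.

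Most genes of the upstream arm of the pathway did not pass the test. Of 28 Hippo kinases and scaffolds, all tested, 4 rose, 5 fell and 19 did not pass, a share of 32.1% called against 37.9% of all tested genes, which is no more than the background. The median log2 fold change was 0.077, beside -0.05 over all tested genes. The 5 falls became 3 under median-ratio scaling, under rescaling that leaves out the top 50 genes, with no filter, with the block, with voom or without TAZ replicate 3, and 2 without control replicate 1 or TAZ replicate 1. The 4 rises became 7 without control replicate 3.

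RASSF1, a scaffold that binds the MST kinases, rose from 6.38 ± 0.671 to 13.96 ± 1.25 FPKM (SD, n = 3 each, log2 fold change 1.02, limma adjusted p = 5.88e-06). WWC2, a relative of the LATS activator KIBRA, was 1.71 times as high. WWC1, which encodes KIBRA itself, fell from 12.75 ± 1.71 to 8.81 ± 1.28 FPKM (limma adjusted p = 0.00576). FAT4, an atypical cadherin, fell from 2.12 ± 0.33 to 0.95 ± 0.24 FPKM (limma adjusted p = 0.000482). The core kinase genes STK3, STK4, LATS1 and LATS2 did not pass, with log2 fold changes of -0.28, 0.024, 0.21 and -0.061.

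Genes for proteins that hold YAP and TAZ outside the nucleus or act in protein turnover were next. Of 20 listed genes 18 were tested, of which 1 rose, 5 fell and 12 did not pass (33.3% called against 37.9% of all tested genes, median log2 fold change -0.13 against -0.05). The 5 falls became 2 under median-ratio scaling or with the top 50 genes left out of the totals and 2 when control replicate 3 or TAZ replicate 2 or 3 was left out. They became 3 with quantile normalization, the block, voom or without control replicate 1, and the 1 rise became 2 without control replicate 3.

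YWHAH, a 14-3-3 gene, fell to 0.738 times the control level, from 132.7 ± 10.2 to 97.9 ± 8.07 FPKM (SD, n = 3 each, limma adjusted p = 0.00221). AMOTL2, an angiomotin family gene that is also a TEAD target, fell from 80.8 ± 4.03 to 64.7 ± 4.68 FPKM (limma adjusted p = 0.0106), a call lost without TAZ replicate 2 (0.0501). The ubiquitin ligase subunit genes BTRC and FBXW11 did not pass, at 0.844 and 1.17 times the control level.

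Among nuclear partners (transcription factors, AP-1 genes and chromatin cofactors), 22 of 28 listed genes were tested. Of these 4 rose, 3 fell and 15 did not pass (31.8% called against 37.9% of all tested genes, median log2 fold change 0.08 against -0.05). The 4 rises became 7 under median-ratio scaling, with voom or with the length trend removed. NCOA1, a nuclear receptor coactivator gene, rose from 6.72 ± 0.685 to 11.1 ± 0.843 FPKM (SD, n = 3 each, limma adjusted p = 0.000233). SMAD3, a TGF-beta effector that binds TAZ, fell from 9.40 ± 0.598 to 5.82 ± 0.435 FPKM (limma adjusted p = 0.000274). FOSL1, an AP-1 subunit gene, rose from 48.6 ± 13.9 to 95.2 ± 17.8 FPKM (limma adjusted p = 0.000594). Its paralog FOSL2 fell from 88.6 ± 5.71 to 63.8 ± 4.59 FPKM (limma adjusted p = 0.000964). RUNX2, a long-known partner of TAZ, stood at 8.82 ± 0.954 and 6.94 ± 0.724 FPKM (SD, n = 3 each, limma adjusted p = 0.0387), a call that held under 9 of 18 alternatives, with adjusted p-values from 0.0155 to 0.152. RUNX1, also on this list, went the other way. It rose to 1.36 times the control level, without overlap between the groups (limma adjusted p = 0.003998, and 0.01764 with no filter). PPARG was below the filter with at most 0.142 FPKM in any library.

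Of 26 canonical targets of YAP, TAZ and TEAD, 22 were tested, and 9 rose, 7 fell and 6 did not pass. The share called was 72.7% against 37.9% over all tested genes, and the median log2 fold change was 0.12. These targets were chosen with results of these data known, and their share was not tested. The list is not separate from those above: AMOTL1 and AMOTL2 are also among the retention and turnover genes, and AJUBA, LATS2 and PTPN14 among the Hippo genes. The 7 falls became 4 with no filter. IGFBP3 rose 8.93-fold, from 10.7 ± 3.49 to 95.4 ± 22.3 FPKM (SD, n = 3 each). THBS1 and CYR61 were 1.81 and 1.29 times as high, whereas CTGF, a best-known TEAD target, fell to 0.518 times the control level (limma adjusted p = 3.2e-05). ANKRD1 stayed below the filter at 0.494 ± 0.341 and 0.499 ± 0.224 FPKM.

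**Figure D4:**
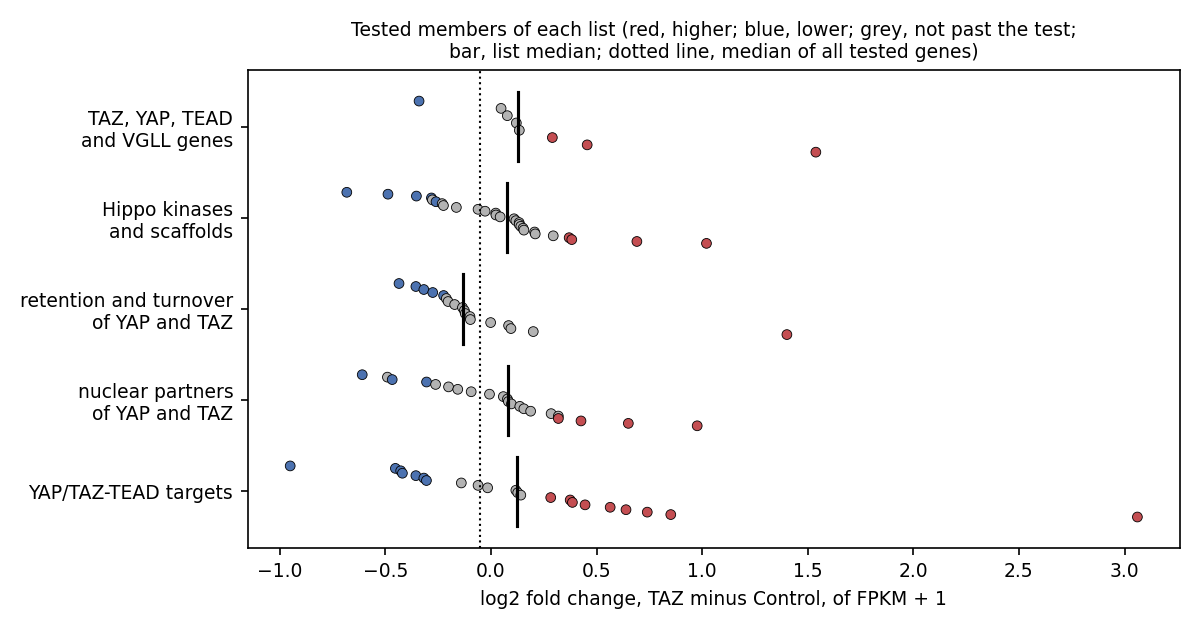
Log2 fold changes (TAZ minus control, FPKM + 1) of the tested genes of the family and of 4 pathway lists, 1 point per gene, red for genes that rose, blue for genes that fell and grey for the rest. Black bars are list medians, from -0.13 to 0.13, and the dotted line is the median of all tested genes at -0.05. Every list holds genes on both sides of 0. The target list shares AMOTL1, AMOTL2, AJUBA, LATS2 and PTPN14 with other lists.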

How the data were processed

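Per the submitters' processing notes, fastp, HISAT2 and HTSeq were used. Tool versions, strandedness, genome build and the rule for reads shared between paralogs were not given in the sources used here. Positions are therefore not printed. The authors deposited FPKM values, 1 table per group and 1 column per library. Of 16285 rows, 23 held a date in place of a symbol and were left out, and the other 16262 symbols all matched the RefSeq table of assembly ARS1.2, used for names only. Library totals and gene lengths were recovered from the FPKM steps (multiples of 0.5 fragments within 0.02), for 100% of the tested genes, which held 99.2% to 99.26% of the totals. Why fragment numbers step in 0.5 was not stated, so errors from counting are approximate. Chi-square per degree of freedom between libraries of a group was at least 10.41, so none was a copy. Poisson intervals cover counting error only, whereas limma intervals rest on the spread between libraries.

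Genes at 1 FPKM or more in at least 3 libraries were tested with limma 3.58.1 in R 4.3.3 (pseudocount 1, mean-variance trend). Sums, shares and ratios were tested by exact permutation in SciPy 1.17.1. The recovery of totals and lengths and the limma fit were tested on simulated data. The family, the lists and the tests were chosen with earlier results of these data known. All 8 genes were named whatever their p. In each pathway list the 3 genes with the lowest adjusted p, the leading gene of the rarer direction and CTGF, CYR61 and ANKRD1 were named. Core kinases, WWC1, AMOTL1, BTRC, FBXW11, FOSL2, RUNX1, RUNX2 and PPARG were added after their values were seen. 1 gene that the rule names is not reported here. Alternatives were other pseudocounts, filters, scalings and variance models, voom, a replicate block, each library left out in turn, and removal of a length trend.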

Additional observations from a re-analysis of the deposited data

How the results depend on the processing

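WWTR1 kept its call under all 18 alternatives, with log2 fold changes from 1.38 to 1.62. TEAD2, VGLL3 and TEAD4 kept their direction under all 18 and their call under 16, 15 and 12. YAP1, TEAD1, TEAD3 and VGLL4 passed under none, and TEAD3 turned sign without control replicate 3 (log2 fold changes from -0.0099 to 0.086 with 1 library left out). The count of 4 genes called was 2 with no filter on low genes, and 2 to 3 when 1 library was left out. The count over all genes ran from 3205 to 4396 with 1 library left out. Median-ratio scaling moved the part of called genes that were higher from 41.6% to 52.4%, and removing the length trend moved it to 52.8%. No scaling moved the median of all genes by over 0.1 log2.

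The replicate number as a block left 3 of the 8 genes called and 3512 genes in all. Deviations of same-numbered libraries correlated at -0.436, -0.112 and -0.403, so the numbers did not pair the libraries, and no library correlated best with its own number. Each correlated best across numbers: control replicate 3 with TAZ replicate 1 (0.691), control replicate 2 with TAZ replicate 3 (0.552) and control replicate 1 with TAZ replicate 2 (0.534). The labels give no such pairing, none was fitted, and its cause was not tested, so the block says little about the calls.

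Depth limits TEAD4 most, the gene with the fewest fragments: counting alone gave a coefficient of variation of 4.55% in the controls, against 6.51% between libraries.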

Other observations

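AMOT, an angiomotin that binds YAP and TAZ, was below the filter and was noticed after its values were seen. It stood at 0.237 ± 0.0544 FPKM in the controls and 0.00749 ± 0.0049 FPKM in the TAZ libraries (SD, n = 3 each). With no filter it passed limma's test (adjusted p = 0.00116). Its relatives AMOTL1 and AMOTL2 stood at 0.766 and 0.801 times the control level, with adjusted p-values of 0.0889 and 0.0199 in the same fit. With the filter AMOTL1 passed too (limma adjusted p = 0.0299), a call that held under 12 of 18 alternatives.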
